A study of Mus musculus with 6 samples.

Results

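Zfp750, the mouse gene for the zinc finger transcription factor ZNF750, was followed together with 7 genes whose products act before it, beside it or with it in epidermal transcription. They are its upstream factor Trp63, its co-factor Klf4, and the corepressor subunits Kdm1a, Rcor1, Ctbp1, Ctbp2 and Hdac1. The 8 genes were chosen by name and found by their Ensembl identifiers among 55487 genes. Each passed the filter on low values, which kept the 13688 genes that reached an FPKM of 1 in 3 or more libraries. FPKM divides the fragments of a gene by its transcript length and by library depth, so levels can be set side by side between genes. Comparison between libraries still depends on scaling, as the FPKM of a library summed to between 703726 and 770835.

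The values come from poly(A)-selected RNA of newborn mouse back-skin epidermis at postnatal day 0, with 3 libraries labelled control and 3 labelled Znf750 cKO, written Znf750_cKO here. The epidermis was lifted off after dispase and dissociated with trypsin, and no sort is named. The labels do not give the strain, the genotype of the controls, the Cre driver, the deleted exons, or whether a library is 1 animal or a pool. The p-values therefore measure only the spread between these libraries.

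In skin, p63 (encoded by Trp63) is the master regulator of the epidermal lineage, and it activates the gene for ZNF750. ZNF750 acts in keratinocytes that leave the basal layer. With KLF4 it turns on terminal differentiation genes, and with the demethylase LSD1 (encoded by Kdm1a) it turns off progenitor genes. The scaffold RCOR1 and the CtBP corepressors also act with it. LSD1, RCOR1 and a class I histone deacetylase form the core of the CoREST complex, which removes activating methyl and acetyl marks from histone tails.

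The RefSeq promoter windows on GRCm38.p6 were searched for the letters CCNNAGGC, a motif reported for human ZNF750, on both strands. Windows for 5 of the 8 genes were matched: Klf4, Kdm1a, Rcor1, Ctbp1 and Ctbp2. The 2 windows below are shown because Klf4 and Rcor1 are the matched genes whose libraries did not overlap between the groups, in opposite directions. The 250 bases before each start are printed 5′ to 3′ on the gene's strand, with the motif in capitals. Klf4 is at chr4:55532476-55532725 on the minus strand and Rcor1 at chr12:111039117-111039366 on the plus strand.
Klf4: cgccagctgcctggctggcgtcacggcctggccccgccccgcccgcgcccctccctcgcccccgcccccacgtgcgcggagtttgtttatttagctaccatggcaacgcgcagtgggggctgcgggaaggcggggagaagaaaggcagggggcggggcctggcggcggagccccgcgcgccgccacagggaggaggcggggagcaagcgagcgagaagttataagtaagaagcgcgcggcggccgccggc
Rcor1: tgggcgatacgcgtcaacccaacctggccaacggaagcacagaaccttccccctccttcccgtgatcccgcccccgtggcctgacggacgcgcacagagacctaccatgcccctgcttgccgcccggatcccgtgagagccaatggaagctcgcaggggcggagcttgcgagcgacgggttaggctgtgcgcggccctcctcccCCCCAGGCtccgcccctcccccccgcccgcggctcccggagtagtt

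The Rcor1 window holds 1 match, which begins 46 bases before the start. The windows of Klf4, Kdm1a, Ctbp1 and Ctbp2 hold 0 matches, counting also the 50 bases after each start. Of 32851 windows of the same 300 bases, 24.1% hold the motif, so a single match among these genes is a description of the letters and not a binding site. Both printed promoters are rich in G and C: 74.3% for Klf4 and 69.3% for Rcor1, against a median of 52.7% over all windows. They hold 40 and 31 CpG dinucleotides, against a median of 7. CACCC, the core of the sequence that KLF factors bind, is in 57.5% of all windows, in 0 copies in the windows of Klf4, Rcor1 and Ctbp2, in 1 copy in that of Ctbp1 and in 2 in that of Kdm1a.

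Replicate 3 of each group stood apart from the other libraries in Y-linked genes and Xist. The summed FPKM of the Y-linked genes Ddx3y, Eif2s3y and Kdm5d was 97.5 and 78 in control replicates 1 and 2 and 0.31 in control replicate 3. It was 88.7 and 82.6 in Znf750_cKO replicates 1 and 2 and 0.49 in replicate 3, and Xist was at 104.05 and 82.13 FPKM in these replicates and at most 0.11 elsewhere. The split is balanced over the groups, and results are also given without replicate 3 of both groups. Estimated depth was 21.5 to 35.5 M reads (megareads) per library, and 24045 to 29087 genes were above 0.

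Zfp750 (ENSMUSG00000039238, chr11:121510978-121519333, minus strand, GRCm38) was at 44.82, 32.02 and 34.94 FPKM in the 3 control libraries. It was at 0.99, 0.83 and 1.47 FPKM in the 3 Znf750_cKO libraries. All 3 Znf750_cKO libraries lay far below every control library, so this transcript separates the 6 libraries as their labels do. Zfp750 fell from 37.3 ± 6.71 to 1.10 ± 0.333 FPKM (SD, n = 3 in each group), and the control mean was 34 times the other. On the log2(FPKM + 1) scale, used for all log2 changes here, the change was -4.19 (SE 0.173, 95% interval -4.59 to -3.79), and limma's adjusted p was 4.6e-05. The log2(FPKM + 1) scale understates the change of genes with low values, and the lower Zfp750 level is close to the added 1.

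The remaining Zfp750 signal was not 0. It amounted to 2.66%, 2.23% and 3.95% of the control mean in Znf750_cKO replicates 1, 2 and 3. At the estimated depth these values stand for about 110, 69 and 106 reads, against 3988, 2157 and 2572 in the control libraries. The gene has 1 annotated transcript of 3232 bases in 3 exons, and a value per gene does not show which exons the remaining reads cover. It lies inside the span of Tbcd, a gene on the opposite strand with which it shares no annotated exon sequence. In bulk RNA, fewer cells that express a gene and less RNA per cell cannot be told apart, here and in every result that follows.

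In control epidermis the 8 genes spanned from 198.75 FPKM for Klf4 in control replicate 3 to 12.89 FPKM for Ctbp2 in control replicate 2. The order of the control means was Klf4 at 169, Trp63 at 109, Ctbp1 at 102, Hdac1 at 59.7, Kdm1a at 42.7, Zfp750 at 37.3, Rcor1 at 22 and Ctbp2 at 16.4 FPKM. The ranges of neighbours in that order overlapped for Trp63 and Ctbp1 and for Kdm1a and Zfp750. The order of Trp63 and Ctbp1 differed between control libraries, so their places are not separated. Kdm1a was above Zfp750 within each control library, at 44.84 and 44.82, 41.61 and 32.02, and 41.54 and 34.94 FPKM in replicates 1, 2 and 3. Zfp750 thus stood at or below the level of the demethylase gene Kdm1a, and above 79.5% to 85.7% of tested genes. In the Znf750_cKO libraries it was the lowest of the 8 genes, above 5.7% to 9% of tested genes. The order of the other 7 genes was the same by mean in both groups, but in the Znf750_cKO libraries the ranges of Hdac1 and Kdm1a overlapped, and so did those of Rcor1 and Ctbp2. Rcor1 was above Ctbp2 within each of these libraries.

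**Figure D1:**
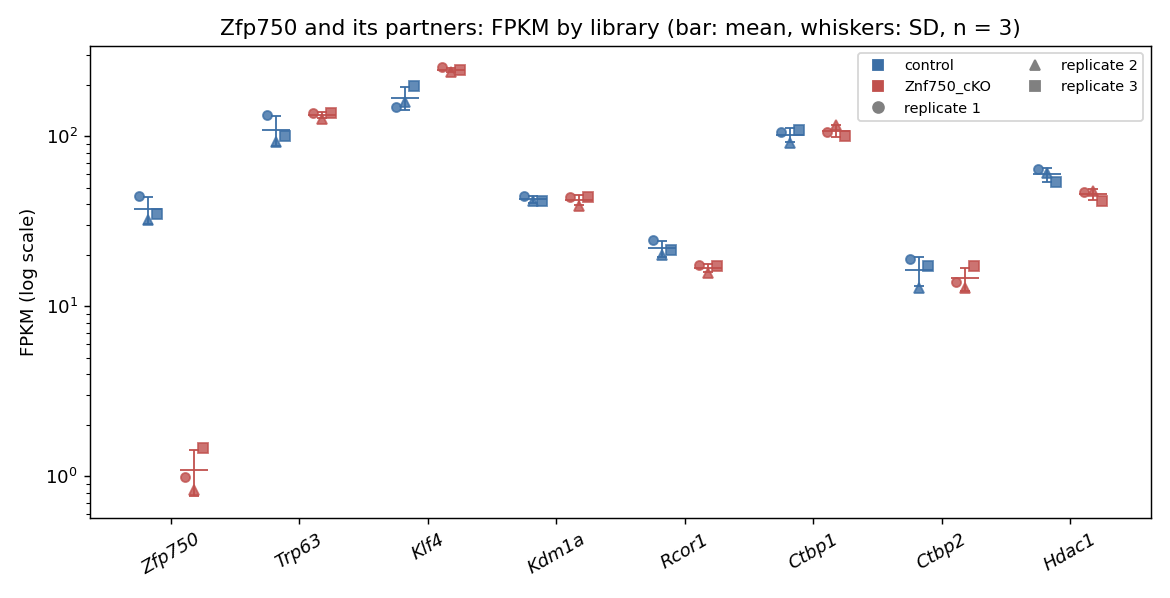
FPKM of the 8 genes in each library on a log axis, with control libraries in blue and Znf750_cKO libraries in red, the marker shape giving the replicate number, and bars and whiskers the mean and SD (n = 3 per group). Zfp750 drops from 32.02 to 44.82 FPKM in the controls to 0.83 to 1.47, while the other 7 genes stay above 12 FPKM in every library.

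Among the 8 genes, 1 passed an adjusted p of 0.05, and it was Zfp750. Over all 13688 tested genes 4.22% passed, made up of 1.11% that rose (152 genes) and 3.1% that fell (425 genes). Libraries of the 2 groups did not overlap for 4 of the 8 genes, Zfp750, Klf4, Rcor1 and Hdac1, against 28% of all tested genes. The split of changed genes depends on scaling, with 253 that rose and 294 that fell under median-ratio scaling and 201 and 218 under quantile normalization. The median log2 change of all tested genes was -0.08, and the log2 changes of single genes can be read against it. It was positive for 37.8% of tested genes, and for 39.7% to 52.3% under the 4 other scalings. An unadjusted p under 0.05 was reached by 2914 genes, 21.3% of those tested, the share beside which such counts in the gene lists stand.

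**Figure D2:**
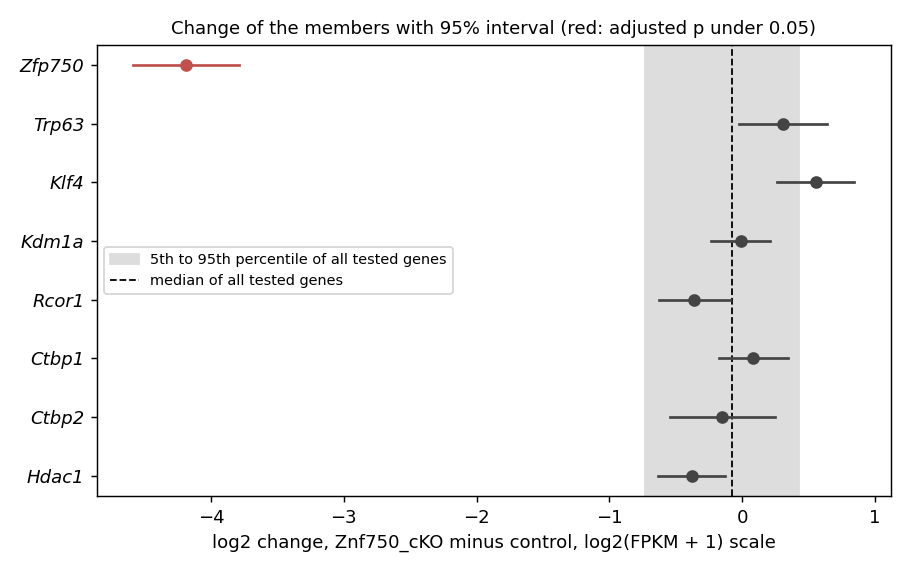
Log2 change of each of the 8 genes (Znf750_cKO minus control, log2(FPKM + 1) scale) with its 95% interval, in red where the adjusted p was under 0.05. The grey band runs from the 5th to the 95th percentile of all tested genes (-0.73 to 0.43), and Zfp750 at -4.19 and Klf4 at 0.55 are the points outside it.

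Trp63 (ENSMUSG00000022510, chr16:25683763-25892102, plus strand), the upstream factor, was at 134.05, 93.28 and 100.85 FPKM in the control libraries. It was at 136.88, 126.89 and 138.02 FPKM in the Znf750_cKO libraries. The groups overlapped, because control replicate 1 lay among the Znf750_cKO libraries and only control replicates 2 and 3 lay below them. The means were 109 ± 21.7 and 134 ± 6.12 FPKM (SD, n = 3 per group), with a log2 change of 0.31 (SE 0.144) and an adjusted p of 0.27 by limma. The 95% interval ran from 0.982-fold to 1.56-fold, so a drop in Trp63 of more than a few percent lay outside it and a rise of 1.5-fold lay inside. The annotation gives Trp63 8 transcripts, and a value per gene does not separate the long TAp63 forms from the short ΔNp63 forms that predominate in epidermis.

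Zfp750 and Trp63 kept an even ratio over the control libraries. The ratio of Zfp750 to Trp63 was 0.334, 0.343 and 0.346 in control replicates 1, 2 and 3, although both genes were highest in replicate 1. It was 0.00723, 0.00654 and 0.0107 in the Znf750_cKO libraries. The ratio does not depend on how a library is scaled, and its groups did not overlap. The exact permutation test over the 6 libraries gave p = 0.1, the smallest value that 3 against 3 libraries can give, and an adjusted p of 0.233 over the 7 ratios computed. The ratio to Klf4 was less even in the controls, at 0.3, 0.201 and 0.176.

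**Figure D3:**
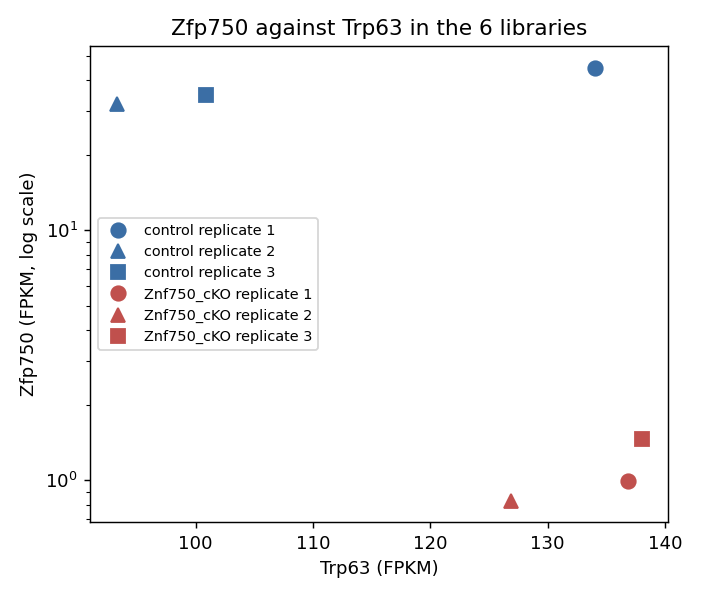
Zfp750 (log axis) against Trp63 (linear axis), both in FPKM, with 1 point per library. The 3 control libraries (blue) lie at 32.02 to 44.82 FPKM of Zfp750 over a Trp63 range of 93.28 to 134.05, and the 3 Znf750_cKO libraries (red) lie near 1 FPKM of Zfp750 at Trp63 levels of 126.89 to 138.02.

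Around Trp63, none of the 8 genes of the p53 family and of p63 turnover passed limma's test, and 0 had an unadjusted p under 0.05. The log2 change was positive for 4 of 8, with a median of 0.03. Trp63 was the most abundant of them. Of 15 genes known to depend on p63 in epidermis, none passed limma's test and 8 had an unadjusted p under 0.05, against 21.3% of all tested genes. The log2 change was positive for 15 of the 15, against 37.8% of all tested genes. Under the 4 other scalings it was positive for 14 to 15, against 39.7% to 52.3%. Their median log2 change was 0.365, against a median of -0.08 over all tested genes. Under median-ratio scaling 1 of them passed, Ripk4, a kinase gene of keratinocyte differentiation (adjusted p 0.0484, 0.086 without it).

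With the replicate number as a block, 3 genes of the p63-dependent list passed and were higher in the Znf750_cKO libraries: Jag2, a Notch ligand (blocked adjusted p 0.0441), and the basal anchoring genes Col17a1 (0.048) and Itga6 (0.0443). Without the block their adjusted p-values by limma were 0.12, 0.11 and 0.091. Their means were 70.7 and 114 FPKM for Jag2, 264 and 379 FPKM for Col17a1, and 199 and 292 FPKM for Itga6, control first, and in each of the 3 genes the groups did not overlap.

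Klf4 (ENSMUSG00000003032, chr4:55527143-55532466, minus strand), the co-factor in terminal differentiation, was at 149.42, 159.15 and 198.75 FPKM in the control libraries. It was at 254.9, 239.83 and 245.61 FPKM in the Znf750_cKO libraries. Every Znf750_cKO library lay above every control library, and the Znf750_cKO libraries were close together. The means were 169 ± 26.1 and 247 ± 7.60 FPKM (SD, n = 3 per group), a ratio of 1.46. The log2 change was 0.55 (SE 0.126, 95% interval 0.26 to 0.84), and the adjusted p by limma was 0.054, just above the threshold. Klf4 passed under all 4 other scalings of the libraries, with adjusted p from 0.0367 to 0.0495, and without control replicate 3, at 0.0388. It did not pass with the replicate block (0.0653) or without replicate 3 of both groups (log2 change 0.68, adjusted p 0.0622). It also did not pass when any other single library was left out (0.0919 to 0.175) or with no filter on low values (0.178). In all, Klf4 passed in 5 of 17 alternatives.

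Of the 17 genes of the Klf family, 14 were tested, and Klf1, Klf14 and Klf17 were at or under 0.64 FPKM in every library. The calls went in both directions: 1 gene rose, 1 fell and 12 did not pass. An unadjusted p under 0.05 by limma was reached by 9 of the 14, against 21.3% of all tested genes. The groups of 9 did not overlap, against 28% of all tested genes. The log2 change was positive for 10 of 14, against 37.8% of all tested genes, and its median was 0.33. Under the 4 other scalings the count stayed at 10 while the share of all genes ran up to 52.3%. Klf9, a glucocorticoid-responsive brake on keratinocyte proliferation, was at 6.56, 4.36 and 6.25 FPKM in the controls and at 13.85, 9.16 and 11.74 FPKM in the Znf750_cKO libraries. Its groups did not overlap, and it rose by a log2 change of 0.90 (SE 0.191), with an adjusted p of 0.043 by limma. Klf10, a TGF-beta-inducible repressor, was at 26.15, 28.18 and 29.51 FPKM in the controls and at 13.89, 17.27 and 16.35 FPKM in the Znf750_cKO libraries. Its groups were further apart than their spread, and it fell by a log2 change of -0.79 (SE 0.116), with an adjusted p of 0.015 by limma.

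Both calls depended on single libraries and on the processing. The Klf9 call held without Znf750_cKO replicate 2 and ended without any other single library, with adjusted p up to 0.151. It also ended under TPM scaling (0.0626), a variance model without trend (0.0635) and no filter on low values (0.175), and held in 8 of 17 alternatives. The Klf10 call ended without control replicate 2 (0.0582), control replicate 3 (0.0501) or Znf750_cKO replicate 1 (0.063), and with no filter on low values (0.0796). Without replicate 3 of both groups neither passed, at 0.111 for Klf9 and 0.0538 for Klf10. With the replicate block Klf6, an injury-responsive family member, also passed (blocked adjusted p 0.0496, unblocked 0.13), as it did without Znf750_cKO replicate 2 (0.0389), with means of 30.3 and 53.3 FPKM in the control and Znf750_cKO libraries.

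Klf5, the family member closest to Klf4 in epidermal level and active in proliferating epithelium, was at 91.36, 88.44 and 88.24 FPKM in the controls and at 97.46, 107.65 and 82.55 FPKM in the Znf750_cKO libraries. Its groups overlapped, with an adjusted p of 0.71 by limma. The ratio of Klf4 to Klf5 was 1.64, 1.8 and 2.25 in the controls and 2.62, 2.23 and 2.98 in the Znf750_cKO libraries, which overlapped (exact permutation p = 0.2, adjusted 0.28).

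**Figure D4:**
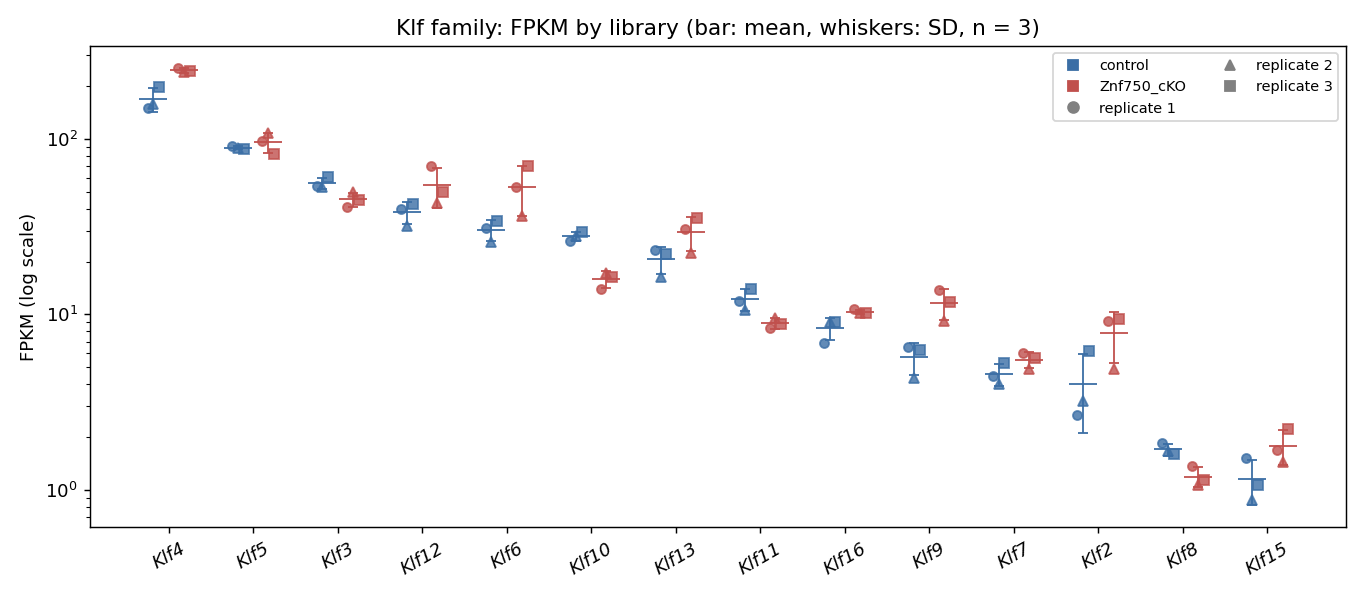
FPKM of the 14 tested Klf genes in each library on a log axis, ordered by level, with colours, markers, bars and whiskers as in the plot of the 8 genes. Klf4 is the most abundant in both groups, and Klf9 (5.72 to 11.6 FPKM by mean) and Klf10 (27.9 to 15.8 FPKM) are the genes past the threshold.

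Among 24 other epidermal transcription factors, 2 rose and 0 fell, where 1.11% of all tested genes rose and 3.1% fell. Grhl3, a grainyhead factor needed for the barrier, was at 18.55, 19.78 and 20.07 FPKM in the controls and at 40.62, 35.32 and 32.90 FPKM in the Znf750_cKO libraries, with a log2 change of 0.86 (SE 0.11) and an adjusted p of 0.0087 by limma. Maf, a factor of late differentiation, went from 7.87 ± 1.13 to 15.8 ± 1.17 FPKM, with a log2 change of 0.93 (SE 0.133) and an adjusted p of 0.013. Neither gene's groups overlapped. The Grhl3 call held without each single library in turn, and the Maf call ended without Znf750_cKO replicate 1 (adjusted p 0.0591). Both calls ended with no filter on low values (0.054 for Grhl3 and 0.0733 for Maf), and Ovol2, another epithelial factor, passed under median-ratio scaling (0.0456) and quantile normalization (0.0475) but not otherwise (0.065 in the reported fit). The list as a whole was mixed, with 13 of 24 positive, against 37.8% of all tested genes, and a median of 0.02, against -0.08. Under the 4 other scalings 14 to 17 were positive, against 39.7% to 52.3%. An unadjusted p under 0.05 by limma was reached by 6, against 21.3% of all tested genes. The groups of 6 did not overlap, against 28%.

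Kdm1a (ENSMUSG00000036940, chr4:136550540-136602723, minus strand), which encodes the catalytic demethylase LSD1, was at 44.84, 41.61 and 41.54 FPKM in the control libraries. It was at 43.84, 39.03 and 44.12 FPKM in the Znf750_cKO libraries. The groups overlapped and the means, 42.7 ± 1.89 and 42.3 ± 2.86 FPKM (SD, n = 3 per group), nearly coincided. The log2 change was -0.01 (SE 0.097) with an adjusted p of 0.97 by limma, and its sign turned positive under all 4 other scalings. The 95% interval ran from 0.85-fold to 1.16-fold, the narrowest of the 8 genes.

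Rcor1 (ENSMUSG00000037896, chr12:111039351-111115901, plus strand), the scaffold that ties LSD1 to the deacetylases, was at 24.60, 19.94 and 21.46 FPKM in the control libraries. It was at 17.49, 15.77 and 17.34 FPKM in the Znf750_cKO libraries. The groups did not overlap, and control replicate 2 came closest to the Znf750_cKO libraries. The means were 22.0 ± 2.38 and 16.9 ± 0.953 FPKM (SD, n = 3 per group), a ratio of 0.767, with a log2 change of -0.36 (SE 0.115, 95% interval -0.63 to -0.10). The adjusted p by limma was 0.12, and it stayed above 0.05 in all 17 alternatives (0.0868 to 0.359). Some Rcor1 exon sequence is shared with Gm48632 on the same strand, so reads there could have been divided between them.

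Hdac1 (ENSMUSG00000028800, chr4:129516104-129542713, minus strand), which removes acetyl groups within the complex, was at 64.69, 60.57 and 53.91 FPKM in the control libraries. It was at 46.94, 48.06 and 41.73 FPKM in the Znf750_cKO libraries. Here too every Znf750_cKO library lay below every control library. The means were 59.7 ± 5.44 and 45.6 ± 3.38 FPKM (SD, n = 3 per group), a ratio of 0.763, with a log2 change of -0.38 (SE 0.109, 95% interval -0.63 to -0.13). The adjusted p by limma was 0.098, above the threshold as in all 17 alternatives (0.0673 to 0.297).

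The paralogs of these subunits gave a mixed picture. Rcor3 was at 12.94, 10.35 and 11.93 FPKM in the controls and at 13.03, 9.97 and 13.47 FPKM in the Znf750_cKO libraries, so its groups overlapped. The ratio of Rcor1 to Rcor3 was 1.9, 1.93 and 1.8 in the controls and 1.34, 1.58 and 1.29 in the Znf750_cKO libraries. The ratio was lower in every Znf750_cKO library, with a log2 difference of -0.42, with an exact permutation p of 0.1 (the smallest possible) and 0.233 after adjustment over 7 ratios. Hdac2 was at 71.35, 72.90 and 67.35 FPKM in the controls and at 57.51, 62.41 and 65.95 FPKM in the Znf750_cKO libraries. Its groups did not overlap, and its adjusted p was 0.32 by limma. The ratio of Hdac1 to Hdac2 overlapped between the groups (log2 difference -0.2, exact permutation p = 0.2, adjusted 0.28).

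Of the 12 tested genes of the CoREST complex, 1 fell, 0 rose and 11 did not pass. An unadjusted p under 0.05 by limma was reached by 5, against 21.3% of all tested genes. The groups of 6 did not overlap, against 28% of all tested genes. The log2 change was positive for 3, against 37.8% of all tested genes. The median was -0.22, against -0.08 over all tested genes, and under the other scalings it ran from -0.21 to -0.14 with 4 or 5 genes positive. The gene that fell was Rcor2, another scaffold paralog known from stem and neural cells. It was at 6.42, 8.40 and 8.62 FPKM in the controls and at 3.59, 5.11 and 3.95 FPKM in the Znf750_cKO libraries, with no overlap. Its log2 change was -0.76 (SE 0.168) and its adjusted p by limma 0.049, a call that held in 3 of 17 alternatives and ended without any single library (adjusted p 0.0501 to 0.167).

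Ctbp1 (ENSMUSG00000037373, chr5:33247723-33274994, minus strand), 1 of the pair of CtBP corepressors, which bind short motifs in repressors and respond to NADH, was at 105.66, 90.92 and 109.54 FPKM in the control libraries. It was at 105.85, 117.02 and 100.88 FPKM in the Znf750_cKO libraries. The groups overlapped fully in their middle range. The means were 102 ± 9.82 and 108 ± 8.27 FPKM (SD, n = 3 per group), with a log2 change of 0.08 (SE 0.112, 95% interval -0.18 to 0.34) and an adjusted p of 0.74 by limma.

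Ctbp2 (ENSMUSG00000030970, chr7:132987563-133124354, minus strand) was at 19.07, 12.89 and 17.38 FPKM in the control libraries. It was at 13.83, 12.88 and 17.21 FPKM in the Znf750_cKO libraries. The groups overlapped, and replicate 2 was the lowest of both. The means were 16.4 ± 3.19 and 14.6 ± 2.28 FPKM (SD, n = 3 per group), with a log2 change of -0.15 (SE 0.17, 95% interval -0.54 to 0.24) and an adjusted p of 0.67 by limma. Its level is uncertain, because it shares annotated exon sequence on the same strand with Fgfr2, whose means were 133 and 160 FPKM.

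Ctbp1 was the more abundant of the pair in every library. The ratio of Ctbp2 to Ctbp1 was 0.18, 0.142 and 0.159 in the controls and 0.131, 0.11 and 0.171 in the Znf750_cKO libraries, which overlapped (exact permutation p = 0.3, adjusted 0.35). Of 14 tested genes of the CtBP complex and its recruiters none passed limma's test, 1 had an unadjusted p under 0.05, and Ctbp1 was the most abundant. Their median log2 change was -0.004. The recruiters Zeb1, Hic1, Zfp366, Prdm16 and Mecom were at or under 0.75 FPKM in every library and were not tested.

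The other histone-modifying complexes gave no calls by limma in the reported fit, and their counts at an unadjusted p under 0.05 are to be read against the 21.3% of all tested genes. None of 14 genes of NuRD, a deacetylase and remodelling complex, passed (2 at an unadjusted p under 0.05, median -0.09, 5 positive), and its most abundant gene Chd3 was at 126 and 131 FPKM by mean. None of 17 genes of the Sin3 deacetylase complex passed (1 at an unadjusted p under 0.05, median -0.13, 5 positive), with Rbbp4 at 95.2 and 81.9 FPKM. None of 5 genes of the nuclear receptor corepressor complex NCoR passed (1 at an unadjusted p under 0.05, median -0.03), with Ncor1 at 54.7 and 54.0 FPKM. Among the 10 tested histone deacetylases none passed either, with 3 at an unadjusted p under 0.05. Groups did not overlap for 5 of these 10, 4 NuRD, 4 Sin3 and 2 NCoR genes, against 28% of all tested genes. The log2 change was positive for 2 of the 10 under every scaling, against 37.8% to 52.3% of all tested genes, with a median of -0.25 (-0.25 to -0.14 under those scalings).

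Among enzymes of the mark that LSD1 removes, none of 7 demethylases of histone H3 lysine 4 passed limma's test (2 at an unadjusted p under 0.05, median -0.07, 2 positive), and Kdm1a was the most abundant. None of 12 subunits of the methyltransferases that place the mark passed (0 at an unadjusted p under 0.05, median -0.02, 5 positive), with Dpy30 at 54.1 and 48.1 FPKM. Of 17 other epidermal chromatin regulators none passed by limma (3 at an unadjusted p under 0.05, median -0.09), with the histone methyltransferase gene Kmt5a the most abundant at 62.4 and 64.5 FPKM. The lists share genes, among them Hdac1, Hdac2, Rbbp4 and Kdm1a, so their counts are not independent.

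**Figure D5:**
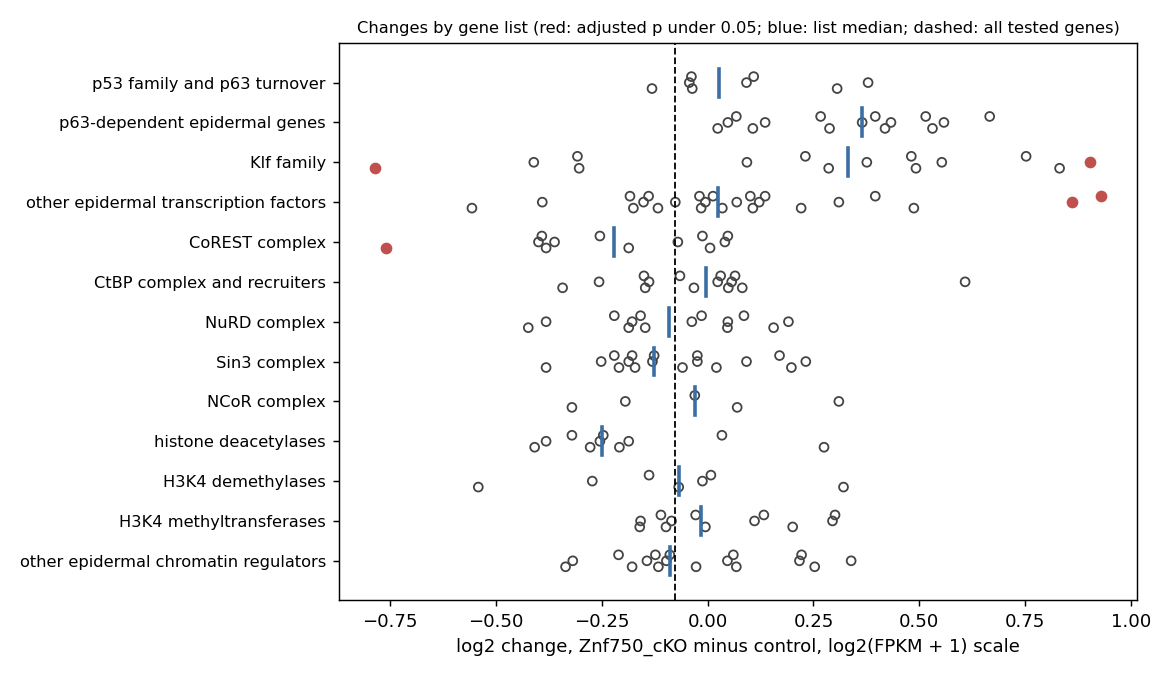
Log2 change of every tested gene in the 13 pathway lists, as 1 circle per gene, filled red where the adjusted p was under 0.05, with the list median as a blue bar and the median of all tested genes (-0.08) as a dashed line. The p63-dependent genes (median 0.365) and the Klf family (0.33) lie mostly to the right, the CoREST genes (-0.22) and the histone deacetylases (-0.25) mostly to the left, and red points are few in every list.

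The libraries carried the markers of epidermal keratinocytes at high levels. None of 8 keratinocyte markers passed limma's test (1 at an unadjusted p under 0.05), their summed level was 28600 to 36800 FPKM in the controls and 33400 to 41800 in the Znf750_cKO libraries, and Krt10, a keratin of spinous cells, was the most abundant. Markers of some other cell types moved with the group. All 6 tested of 9 leukocyte and Langerhans cell markers fell, against 3.1% of all tested genes. The summed level of the list was 77.7 to 125 FPKM in the controls and 11.4 to 15.4 FPKM in the Znf750_cKO libraries. One of the 6, H2-Aa, was at 0.04 to 0.44 FPKM in the Znf750_cKO libraries and reached the filter through the controls alone. The groups of the untested T cell genes overlapped, Cd3e at 0.42 to 1.24 and 0.22 to 1.36 FPKM and Trdc at 0.25 to 0.34 and 0.11 to 0.41 FPKM, control first. Tyrobp, a signalling adaptor of myeloid and natural killer cells, went from 30.1 ± 4.05 to 3.86 ± 0.49 FPKM (adjusted p 0.00021 by limma), while Cd207, the defining Langerhans marker, was at most 0.06 FPKM in any library.

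Of the Merkel cell markers Chga fell from 16.6 to 1.09 FPKM (adjusted p 0.00045 by limma), Krt20 did not pass, and the defining factors Atoh1 and Sox2 were at most 0.58 FPKM. The summed Merkel level was 15.4 to 23.7 FPKM in the controls and 2.75 to 3.96 in the Znf750_cKO libraries. Most of the control sum was Chga, at 12.73 to 21.63 FPKM, against 0.92 to 1.32 FPKM in the Znf750_cKO libraries. The groups of Krt20 did not overlap, with means of 1.24 and 0.76 FPKM. Those of Piezo2, which did not reach the filter, overlapped at 0.28 to 0.87 and 0.58 to 1.03 FPKM. Of 7 hair follicle genes, Lhx2 rose from 24.8 to 43.3 FPKM, Krt71 fell from 6.66 to 0.53 FPKM, and Krt17, the most abundant, was at 874 and 832 FPKM. Krt71, like Krt20, was under 1 FPKM in every Znf750_cKO library and reached the filter through the controls alone. The adjusted p-values by limma were 0.011 for Lhx2 and 0.0087 for Krt71, and both calls ended without Znf750_cKO replicate 1, at 0.055 and 0.056, and with no filter on low values, at 0.0613 and 0.0549. The summed follicle level overlapped between the groups, at 795 to 1070 and 869 to 937 FPKM.

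Of 3 tested erythroid genes Hba-a2 fell from 15.3 to 3.59 FPKM (adjusted p 0.0055 by limma), with a summed level of 19.6 to 52.7 and 6.92 to 11.1 FPKM. None of 6 melanocyte markers passed (most abundant Dct, list summed to 79 to 142 and 96.9 to 114 FPKM). None of 3 tested fibroblast markers passed (most abundant Dcn, list summed to 133 to 159 and 114 to 171 FPKM). The 1 tested endothelial marker, Pecam1, did not pass (list summed to 9.4 to 25.2 and 5.49 to 31.2 FPKM). Of these 10 genes, 0 had an unadjusted p under 0.05 by limma. The fibroblast gene Col1a1 was at most 0.59 FPKM and the endothelial genes Cdh5 and Kdr at most 0.1 FPKM, and no muscle marker reached the filter (summed level at most 1.11 FPKM). Whether the differences in leukocyte markers, erythroid markers or Chga had a part in the values of Zfp750, Klf4, Rcor1 or Hdac1 was not tested.

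The tested genes with a mean FPKM of at least 5 were ranked by their likeness to Zfp750, as Pearson r of log2(FPKM + 1) over the 6 libraries. These 6 points fall into 2 groups, so r mostly restates the difference between the groups and is given as a description. The highest were Coro1a (0.9992), Samhd1, Ugt1a1, Sipa1 and Tyrobp (0.9951). Coro1a, which encodes an actin regulator of leukocytes, was at 19.64, 15.65 and 16.26 FPKM in the controls and at 3.07, 2.59 and 3.50 FPKM in the Znf750_cKO libraries, so it followed Zfp750 also in being highest in control replicate 1 and lowest in Znf750_cKO replicate 2. The lowest were Nol9 (-0.9983), Krt2, Scin, Slc15a3 and Myh14 (-0.9971), of which Krt2, a keratin of the upper spinous layer, was at 0.20 to 0.30 FPKM in the controls and at 171.69 to 333.92 FPKM in the Znf750_cKO libraries. Krt2 reached the filter through the Znf750_cKO libraries alone.

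The nearest patterns to Trp63 and Klf4 were other genes. For Trp63 the highest r over the 6 libraries were those of Mtmr2 (0.9924), Zdhhc20 and Flrt3, and the lowest those of Sult2b1 (-0.9942), Slc9a3r1 and Anapc15. None of these 6 genes passed the test between the groups, and their groups overlapped, as for Trp63 itself. For Klf4 the highest were Cox11 (0.9989), Cdk9 and Phldb3, and the lowest Krt79 (-0.9949), Alox12e and B2m. Of these, Phldb3 rose and Krt79, a keratin of the upper hair follicle, Alox12e, an epidermal lipoxygenase, and B2m, the light chain of MHC class I, fell, and the groups of all 6 were apart, as for Klf4. Both sets of genes were picked by r over the same 6 libraries. Their likeness to Trp63 or Klf4 in overlap between the groups therefore follows largely from that choice.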

How the data were processed

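RNA of 3 control and 3 Znf750_cKO epidermal libraries was compared. The deposited values are FPKM per gene, per the file headers. The submitters' processing notes name STAR 2.5.2a, RSEM 1.2.28, DESeq2, cutadapt 1.15, Trim Galore 0.4.5, MultiQC 1.0 and FastQC 0.11.8, with the builds GRCm38 and mm10, but no role for any of them and no annotation release. The kit is not stated to mark strand, so overlapping genes on opposite strands are not separated.

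Genes that reached an FPKM of 1 in 3 or more libraries were fitted with limma 3.58.1 (R 4.3.3, intensity trend, robust), taking log2(FPKM + 1) as the response and no term beside group. A Benjamini-Hochberg adjusted p under 0.05 over all 13688 genes counts as changed, and "rose" and "fell" are used for such genes. The script was tested on simulated data. Ratios were tested with 2-sided exact permutation over libraries. Symbols matched 55141 of 55487 identifiers, and coordinates are of GENCODE M21 on GRCm38, which holds 99.5% of them.

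Depth is not given with FPKM. It was estimated from steps in the values of genes with 1 transcript, 68.1% to 76.0% of which lay within 0.1 read of a whole number, where chance gives 20%. It entered no test.

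Replicates 1, 2 and 3 of both groups correlated at 0.31, 0.17 and 0.48 after group means were removed, each over 0.1, so the model was also fitted with a replicate block. A pair of differing numbers, 1 of the controls with 2 of Znf750_cKO, also exceeded that limit (r = 0.24), and the other such pairs were negative. The labels do not say what the numbers stand for, and the low Y-linked level of replicate 3 is shared by both groups.

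The 8 genes and the gene lists were chosen with earlier results of these data known. Named are the 8 genes, the changed members of each pathway list or, with none changed, its most abundant member, the paralogs Klf5, Hdac2 and Rcor3, the most abundant and the most significant changed member of each cell type list, and the genes most like Zfp750 (5 each way), Trp63 and Klf4 (3 each way). A few more were named after seeing their values. Of the listed genes, 2 are not reported here and were left out of the list counts, medians and plot. Alternatives were other pseudocounts, no filter, 4 scalings, a variance model without trend, the block, leaving out each library or replicate 3 of both groups, and, chosen after seeing the data, a term for the Y-linked split.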

Additional observations from a re-analysis of the deposited data

How the results depend on the processing

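Zfp750 passed in all 17 alternatives, with log2 changes from -4.99 to -4.05, and Trp63, Kdm1a, Rcor1, Ctbp1, Ctbp2 and Hdac1 passed in none. Klf4 crossed the threshold under TPM scaling (log2 change 0.57), median-ratio scaling (0.64), upper-quartile scaling (0.57) and quantile normalization (0.54), which made 2 of the 8 genes changed in each of these. Leaving out 1 library gave Klf4 changes from 0.47 to 0.67 and 1 to 2 changed genes among the 8, with 2 only without control replicate 3. The cause was not tested. The number of all genes changed fell from 577 to 85 when no filter was used (35621 genes tested), and ranged from 100 to 356 when 1 library was left out. It was 196, 167 and 292 without control replicates 1, 2 and 3, and 100, 355 and 356 without Znf750_cKO replicates 1, 2 and 3. The fit with the replicate block called 392 genes, with 256 lower against 425, and changed no call among the 8 genes. Its changed calls in the pathway lists were those of Jag2, Col17a1, Itga6 and Klf6. Ripk4 and Ovol2 passed only under other scalings. The term for the Y-linked split, chosen after seeing the data, called 618 genes, and the fit without replicate 3 of both groups 390. With 0.5 added before the ratio, the log2 differences of Zfp750 to Klf4 and to Trp63 shrank from -5.67 and -5.42 to -5.12 and -4.88. With 3 libraries a group no exact test can go below 0.1. The estimated depth puts 1 read of Zfp750 at 0.009 to 0.0148 FPKM, and small changes in the corepressor genes are limited by the spread between libraries.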

Other observations

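The neighbours of Zfp750 on chromosome 11 were examined after the values were seen. Within 200 kb, 6 other genes were tested and none passed, against 4.22% of all tested genes. The nearest in place, Tbcd, whose span holds Zfp750 on the opposite strand and which encodes a tubulin-folding cofactor, was at 18.01, 15.63 and 12.80 FPKM in the controls and at 24.25, 19.90 and 14.77 FPKM in the Znf750_cKO libraries, which overlapped (adjusted p 0.41 by limma). Rab40b was at 2.62, 3.70 and 3.95 FPKM in the controls and at 1.75, 2.04 and 1.24 FPKM in the Znf750_cKO libraries (adjusted p 0.084). Fn3krp, a protein deglycation gene, was at 2.98, 4.07 and 3.30 FPKM against 1.26, 1.89 and 2.38 FPKM (adjusted p 0.11). The groups of Rab40b and Fn3krp did not overlap, while those of Wdr45b, B3gntl1 and Metrnl did. Over all tested genes the groups of 28% did not overlap. Fn3k was at most 0.3 FPKM, and Mir7236 and Gm11866 were listed at 0.

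The evenness of the Zfp750 to Trp63 ratio over the 3 control libraries was noticed in the data. The SD of its log2 value was 0.027. The same SD was computed for the ratio of each of 13545 other genes to Trp63, and 34 of them (0.251%) had a smaller one, with a median of 0.303. Over 3 libraries this is a description, and no test was made.

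Klf4 and Trp63 were more even in the Znf750_cKO than in the control libraries. Their coefficients of variation were 15.5% and 19.8% over the controls and 3.08% and 4.57% over the Znf750_cKO libraries, where the median over tested genes was 12.7% and 14.2%. The coefficient was also lower in the Znf750_cKO libraries for Rcor1 (10.8% and 5.65%, control first), Ctbp1 (9.63% and 7.66%), Ctbp2 (19.4% and 15.5%) and Hdac1 (9.11% and 7.41%). It was higher there for Zfp750 (18% and 30.4%) and Kdm1a (4.42% and 6.76%). The differences in spread were not tested.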
